A study of Mus musculus with 2 samples.

Results

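The genes described here encode the subunits of the mitochondrial respiratory chain and ATP synthase. They were chosen by symbol alone: the nuclear families Ndufa, Ndufb, Ndufc, Ndufs, Ndufv and Ndufab, the Sdha to Sdhd genes, the Uqcr genes, Cox4 to Cox8 and Atp5, and the protein-coding genes of mitochondrial DNA with the prefix mt-. Of 32285 genes in the count tables, 107 matched. They are 86 nuclear-encoded subunits, 13 mitochondrially encoded subunits, and 8 complex I assembly factors (Ndufaf1 to Ndufaf8) that the same prefix takes in. By complex, the nuclear subunits number 37 for complex I, 4 for complex II, 8 for complex III, 20 for complex IV and 17 for complex V, counting tissue isoforms. The study compared CD8 T cells of C57/B6N wild-type mice with those of Nfatc1 f/f × Cd4-Cre mice, in which Cre is expressed from the Cd4 promoter and recombines the Nfatc1 gene in the T cell lineage, including CD8 T cells. Cells of both groups were taken from mesenteric lymph nodes with beads, cultured under Tc17-polarising conditions (the medium that drives CD8 cells to make IL-17), and stimulated for 3 h with 100 ng/ml PMA and 10 µg/ml ionomycin. The sources used here give neither the age of the mice nor how many were pooled.

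The respiratory chain passes electrons from NADH and succinate to oxygen and stores the energy as a proton gradient, which ATP synthase uses to make ATP. Complex I oxidises NADH, complex II (succinate dehydrogenase) also belongs to the citric acid cycle, complex III passes electrons from ubiquinol to cytochrome c, and complex IV reduces oxygen. All except complex II are assembled from proteins of both genomes. Nuclear subunit genes are transcribed singly from chromosomal promoters, whereas mitochondrial DNA is transcribed as long precursors that are cut at the tRNA genes into individual mRNAs. In T cells, activation and cytokine differentiation go with changes in mitochondrial mass and respiration.

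There was 1 library per group, so no difference has a replicate check, no test across samples was possible and no p-value is given. Intervals are 95% exact Poisson intervals of summed UMIs (unique molecular identifiers) or conditional binomial intervals of a ratio, and cover counting error only. Cell barcodes had to hold 500 genes or more and no more than 10% mt- UMIs, which left 1018 and 709 cells, with 24452538 and 17898193 UMIs and medians of 20906 and 21436 UMIs per cell in the libraries labelled wild type (here WT-labelled) and deficient (deficient-labelled). No barcode sequence was shared between the libraries. Cd8b1 was detected in 96.6% and 96.5% of cells, Cd4 in 0.295% and 0.564%, and the NK cell gene Ncr1 in none. Nfatc1 itself ran against the labels, at 39.8 CPM (counts per 1000000 UMIs) in the WT-labelled and 136 CPM in the deficient-labelled library, a ratio of 3.42 (3.17 to 3.68). A 3′ tag can lie outside the deleted part of the gene, so this RNA does not check the deletion. The libraries are therefore named by label throughout, and every direction below depends on those labels.

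The 13 mitochondrial genes are described first, because among the members their messages differed most unevenly between the libraries. The last 60 bases of 5 of their coding sequences are shown, since the assay reads the 3′ end of each message and these genes carry the pattern (mouse GRCm38, GENCODE M21, all on the plus strand as printed; capitals mark a complete stop codon). The sequences were read from chrM:6813-6872, chrM:7637-7696, chrM:9331-9390, chrM:3648-3707 and chrM:13506-13565, in the order printed.
mt-Co1: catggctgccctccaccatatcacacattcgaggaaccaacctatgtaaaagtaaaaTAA
mt-Co2: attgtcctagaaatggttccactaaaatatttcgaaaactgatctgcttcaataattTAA
mt-Co3: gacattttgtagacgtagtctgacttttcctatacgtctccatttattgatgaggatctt
mt-Nd1: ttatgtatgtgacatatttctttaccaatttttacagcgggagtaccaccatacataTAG
mt-Nd5: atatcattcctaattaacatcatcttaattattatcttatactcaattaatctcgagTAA
mt-Co3 ends without a complete stop codon in the DNA, as several mitochondrial genes do, and polyadenylation completes it. The assay primes on such A tails.

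The 13 mitochondrial transcripts together made up 3.19% of UMIs in the WT-labelled library and 2.72% in the deficient-labelled library, a ratio of 0.852 (0.849 to 0.855). This fall was not shared evenly. On the log2 scale with 1 CPM added, 8 genes were lower and 5 higher, 7 of them lower and 1 higher by 0.32 or more, the size line used throughout, with a median of -0.32. Among the 5584 genes reaching 20 CPM in either library, 13.4% were lower and 15.6% higher past that line, and the median was 0.03.

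The 3 mitochondrial subunits of complex IV, which form its catalytic core, moved in opposite directions. mt-Co1, which encodes the subunit that holds the site of oxygen reduction, stood at 6678 CPM in the WT-labelled and 7627 CPM in the deficient-labelled library, a ratio of 1.14 (1.13 to 1.15). mt-Co2, whose protein takes electrons from cytochrome c, stood at 4210 and 2665 CPM, 1.58-fold lower (1.56 to 1.60). mt-Co3 stood at 6436 and 4282 CPM, a ratio of 0.665 (0.660 to 0.671). The ratio of mt-Co1 to mt-Co2 UMIs was accordingly 1.59 in the WT-labelled and 2.86 in the deficient-labelled library. Over the 8 cytokine classes defined further on, it ran from 1.43 to 1.85 in the first and from 2.28 to 3.17 in the second. This ratio sets a message that was higher in the deficient-labelled library over one that was lower, so separation is partly built in. The same holds for the mt-Co1 to mt-Co3 and mt-Nd5 to mt-Nd1 ratios. The classes of a library are not replicates, and how often other genes show separate class ranges was not counted. The ratio of mt-Co1 to mt-Co3 was 1.04 and 1.78, with class ranges of 0.906 to 1.19 and 1.60 to 1.89.

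The 7 mitochondrial subunits of complex I, which form its membrane arm, divided in the same uneven way. mt-Nd1 stood at 1394 and 971 CPM, 1.44-fold lower (1.41 to 1.46) in the deficient-labelled library, and mt-Nd4l at 350 and 249 CPM, 1.40-fold lower (1.35 to 1.45). mt-Nd5 stood at 327 and 447 CPM, a ratio of 1.37 (1.32 to 1.41), and mt-Nd4 at 1568 and 1812 CPM, a ratio of 1.15 (1.14 to 1.17). Messages of subunits that occur once each in the same complex thus differed in direction between the libraries. mt-Nd3 stood at 485 and 388 CPM, a ratio of 0.799 (0.776 to 0.823), while mt-Nd2 (1829 and 1856 CPM) and mt-Nd6 (40.1 CPM in both) differed by a log2 ratio of 0.02 or less. mt-Nd6 is the only one of the 13 on the opposite strand. The ratio of mt-Nd5 to mt-Nd1 was 0.235 and 0.461, with class ranges of 0.189 to 0.285 and 0.349 to 0.543.

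The remaining mitochondrial messages were lower in the deficient-labelled library. mt-Cytb, the only mitochondrial subunit of complex III, stood at 2855 and 2267 CPM, 1.26-fold lower (1.24 to 1.27). mt-Atp6 and mt-Atp8, membrane subunits of ATP synthase, stood at 5518 and 4457 CPM and at 185 and 109 CPM. mt-Atp8 overlaps mt-Atp6 and shares a message with it, and mt-Nd4l likewise overlaps mt-Nd4, so tags cannot be divided between such partners with certainty. mt-Nd1, mt-Co2, mt-Co3 and mt-Atp8 were lower, and mt-Co1, mt-Nd4 and mt-Nd5 higher, in all 8 cytokine classes. Over all genes, 7.72% were lower and 13.2% higher in all 8 classes.

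**Figure D1:**
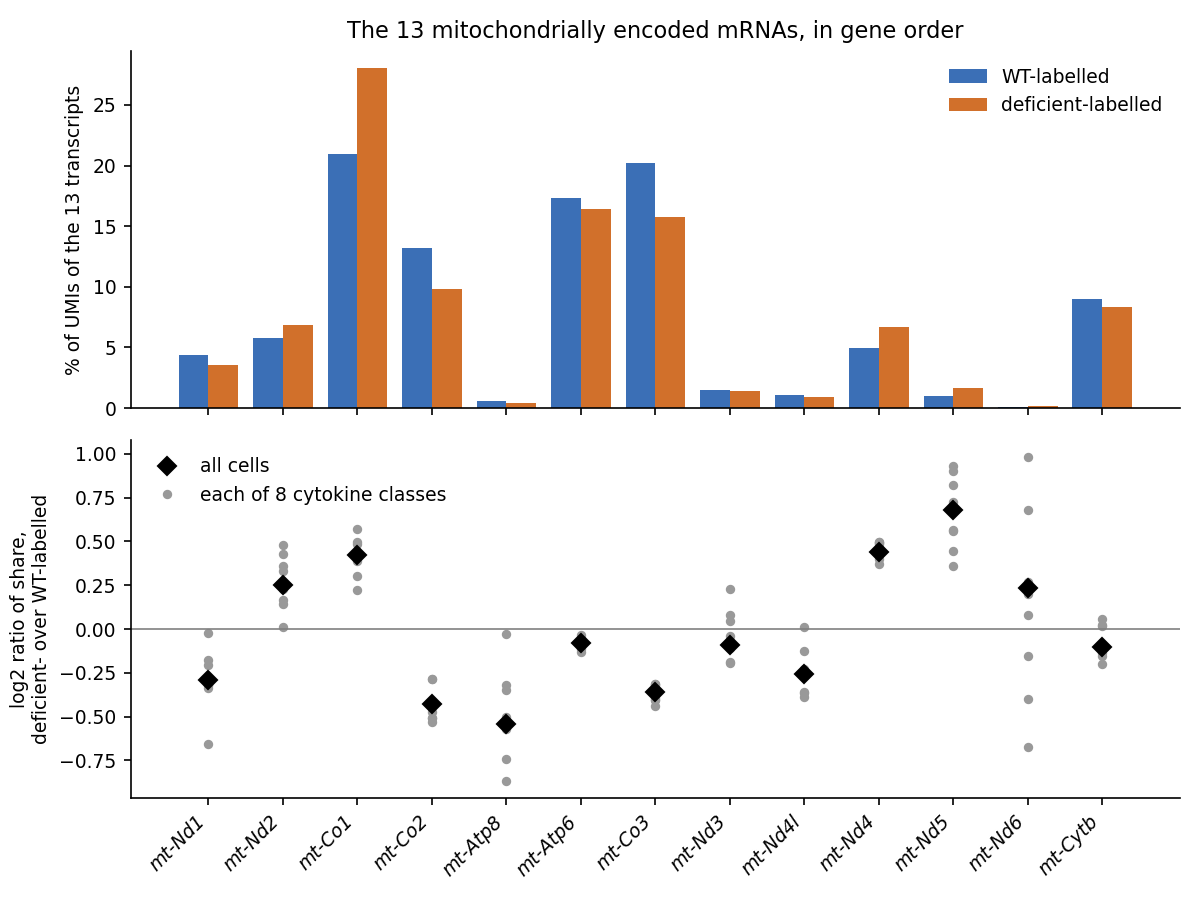
Share of each mitochondrial mRNA in the UMIs of all 13 (upper panel, bars, percent) for both libraries, and the log2 ratio of that share (lower panel; diamonds, all cells; grey points, each of 8 cytokine classes). mt-Co1, mt-Nd4 and mt-Nd5 had a larger share, and mt-Co2 and mt-Co3 a smaller one, in the deficient-labelled library in all 8 classes.

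As shares of the 13, mt-Co1 made up 20.9% and 28.1%, mt-Co2 13.2% and 9.81%, mt-Co3 20.2% and 15.8%, and mt-Nd5 1.03% and 1.65%. The barcodes removed for more than 10% mt- UMIs (112 and 36 with at least 500 genes) are not comparable to the kept cells, and were looked at apart. In them the share of mt-Co2 was lower (log2 ratio -0.43) and that of mt-Nd5 higher (0.64), close to the kept cells at -0.43 and 0.68, whereas mt-Co1 differed by 0.10 against 0.42 and mt-Nd1 by 0.06 against -0.29. Direction also reversed for mt-Atp8 (0.11 against -0.54), mt-Cytb (0.16 against -0.10) and mt-Nd3 (0.09 against -0.09). The differences of mt-Nd2 (0.62 against 0.25) and mt-Nd6 (1.31 against 0.23) were larger. Those of mt-Co3, mt-Nd4, mt-Nd4l and mt-Atp6 kept their direction. For 8 of the 13 genes the nuclear genome holds an annotated copy of at least 95% identity over at least 150 bases. A block on chromosome 1 matches mt-Co2 (over 681 bases), mt-Atp6 and mt-Co3 at 100%, and a copy of mt-Co1 on chromosome 2 matches at 97.6%. None of these copies is counted in the tables, and their part in the values was not tested.

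The 86 nuclear-encoded subunits made up 1.98% of UMIs in the WT-labelled and 1.87% in the deficient-labelled library, a ratio of 0.945 (0.9412 to 0.9495). Of them, 78 reached 20 CPM in either library. Their ratios were small and mostly downward: 63 were lower, against 45.3% of all genes, with a median of -0.11 on the log2 scale, and 75 stayed inside the size line. Sdhb alone was lower, and Ndufa4 and Uqcrfs1 alone were higher, past the line, against 13.4% and 15.6% of all genes. These calls are those of the main settings, and genes near the line changed side under other processing, as given at the end. No member at 20 CPM passed 2-fold, against 2.08% of all genes downward and 2.27% upward. In all 8 cytokine classes, 5 of the 78 nuclear subunits (6.41%) were lower and 2 (2.56%) higher. Over all genes these shares were 7.72% and 13.2%, so keeping 1 direction was no more frequent among the nuclear subunits. By complex, the nuclear medians were -0.13 for complex I, -0.14 for complex II, -0.07 for complex III, -0.03 for complex IV and -0.11 for complex V.

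**Figure D2:**
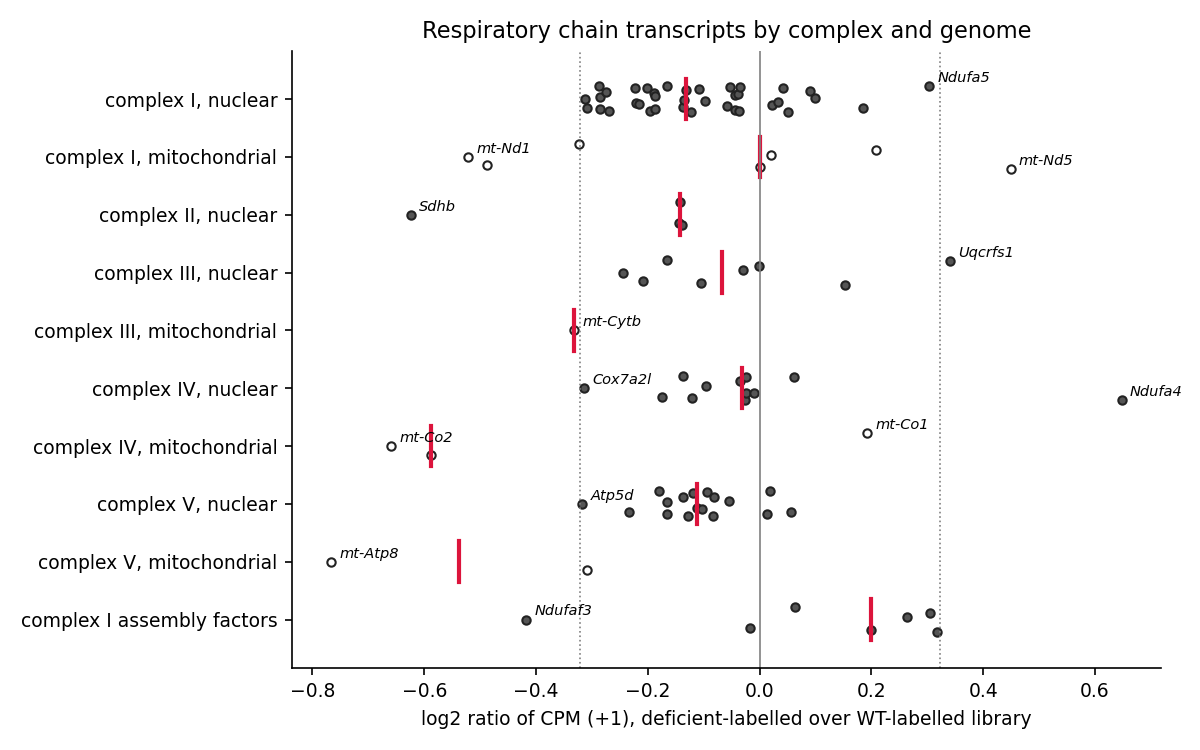
Log2 ratio of CPM with 1 CPM added (horizontal axis) for the 98 members reaching 20 CPM, by complex and genome; filled points are nuclear and open points mitochondrial genes, red bars medians, dotted lines the size line of 0.32. The nuclear medians lie between -0.14 and -0.03, with Sdhb, Ndufa4 and Uqcrfs1 past the dotted lines, while the mitochondrial genes spread from -0.77 to 0.45.

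The 37 nuclear subunits of complex I all stayed inside the size line with the main settings, and 29 were lower in the deficient-labelled library. Ndufb11 and Ndufa13, accessory subunits of the membrane arm, were the lowest, at 147 and 118 CPM (1.24-fold lower, 1.18 to 1.31) and at 268 and 216 CPM (1.24-fold lower, 1.19 to 1.29). Ndufa5, an accessory subunit of the matrix arm, was the highest, at 144 and 179 CPM (ratio 1.24, 1.18 to 1.30). The core subunits that carry the flavin or iron-sulfur clusters went both ways within that limit, from Ndufv1 (38.0 and 31.0 CPM) to Ndufs8 (66.3 and 70.7 CPM, where the interval of the ratio, 0.990 to 1.15, spans no change). Of the 7 assembly factors at 20 CPM, 5 were higher, against 54.7% of all genes, with a median of 0.20. None of those 5 passed the size line with the main settings. Ndufaf2, which acts late in assembly, stood at 65.9 and 82.4 CPM, and Ndufaf4 at 169 and 194 CPM. Of the 2 that were lower, Ndufaf3 differed most, at 20.9 and 15.4 CPM, 1.36-fold lower (1.17 to 1.58), close to the minimum of 20 CPM.

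Complex II held the lowest ratio among the nuclear subunits at 20 CPM, and it was in 1 of its 4 genes. Sdhb, the iron-sulfur subunit, stood at 121 and 77.9 CPM, 1.55-fold lower (1.45 to 1.65) in the deficient-labelled library. Sdha, the flavoprotein, stood at 48.4 and 43.7 CPM, and the membrane anchors Sdhc and Sdhd at 39.5 and 35.8 and at 53.3 and 48.3 CPM, log2 ratios of -0.14 for all 3. Sdhb was lower in all 8 cytokine classes, with log2 ratios from -1.04 to -0.12. Its levels ran from 102 to 164 CPM over the classes of the WT-labelled library and from 65.7 to 115 CPM over those of the other, so the class ranges overlapped at their ends.

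In complex III, 6 of 8 nuclear genes were lower. Uqcrh, the hinge protein next to cytochrome c1, stood at 660 and 557 CPM, 1.18-fold lower (1.16 to 1.21), and Uqcrq at 523 and 453 CPM. Uqcrfs1, the Rieske iron-sulfur protein that is added last to the complex, went the other way, at 153 and 195 CPM, a ratio of 1.27 (1.21 to 1.33). It was higher in all 8 classes, by least in cells with Ifng only. There it stood at 200 CPM (161 to 246) and 204 CPM (173 to 239), with overlapping intervals. The intervals also overlapped in cells with Il17a and Ifng, with Ifng and Il2, with Il17f but neither Il17a nor Ifng, and with none of these cytokines. Uqcr10, a small subunit, stood at 269 and 299 CPM. Uqcrc1, a core subunit, lay at 81.2 CPM in both libraries. In complex V, 14 of 17 genes were lower and all 17 lay inside the size line with the main settings. Atp5d, the delta subunit of the central stalk, was the lowest at 353 and 283 CPM, a ratio of 0.802 (0.775 to 0.830) just inside the line, and lower in all 8 classes. Atp5e, the epsilon subunit of the central stalk and the most abundant nuclear-encoded message of the complex, stood at 601 and 607 CPM, and Atp5l at 462 and 481 CPM. The catalytic beta subunit gene Atp5b stood at 536 and 502 CPM. The 3 genes for the proton-carrying c subunit, which encode the same mature protein, stood at 418 and 424 CPM (Atp5g1), 349 and 319 CPM (Atp5g2), and 378 and 337 CPM (Atp5g3).

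Complex IV had the smallest nuclear median, with 1 gene far from it. Cox4i1, Cox5a, Cox6c, Cox7c and Cox8a, structural subunits around the catalytic core, all lay between log2 -0.18 and 0.00, for example Cox4i1 at 748 and 688 CPM and Cox8a at 705 and 700 CPM. Cox5b stood at 363 and 378 CPM. Cox7a2l, which takes part in joining complexes III and IV into supercomplexes, stood at 300 and 241 CPM, 1.24-fold lower (1.20 to 1.29). Ndufa4, named for complex I and now assigned to complex IV, stood at 233 and 365 CPM, a ratio of 1.57 (1.51 to 1.63). It was higher in the deficient-labelled library in all 8 classes, with log2 ratios from 0.65 to 1.16.

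AA467197 encodes a paralog of the Ndufa4 protein that can take its place in complex IV (known in human as C15orf48 or NMES1) and lies outside the symbol rule. It was chosen after its values had been seen. It stood at 428 CPM in the WT-labelled and 80.2 CPM in the deficient-labelled library, 5.34-fold lower (5.06 to 5.65). Over the 8 classes it ran from 356 to 808 CPM in the first and from 29.4 to 158 CPM in the second, while Ndufa4 ran from 140 to 296 CPM and from 283 to 595 CPM. Between Il2-positive and Il2-negative classes both genes moved the same way in 5 of 6 pairs, whereas they ran in opposite directions between the Il17a and the Ifng class. From the Il17a class to the Ifng class, Ndufa4 went from 239 to 164 CPM and from 491 to 289 CPM, and AA467197 from 405 to 613 CPM and from 33.1 to 129 CPM, in the WT-labelled and the deficient-labelled library. Within the deficient-labelled Ifng class, the 96 cells with an AA467197 UMI after thinning to 5000 UMIs per cell held 214 CPM of Ndufa4 (197 to 232) and the 173 cells without held 330 CPM (314 to 347). In the deficient-labelled Il17a class the 16 cells with such a UMI held 361 CPM (301 to 429) and the 118 without held 506 CPM (481 to 531). Within the WT-labelled Il17a class, Ndufa4 stood at 237 CPM in the 356 cells with such a UMI and 242 CPM in the 225 without, where the intervals overlap. In the WT-labelled Ifng class it stood at 168 CPM in 29 cells with and 151 CPM in 18 without, again with overlapping intervals. The lower Ndufa4 level in cells with AA467197 was thus seen in the deficient-labelled library only. The gene also holds the hairpin of the microRNA Mir147, on chromosome 2 within its annotated span, and the assay does not count that microRNA.

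**Figure D3:**
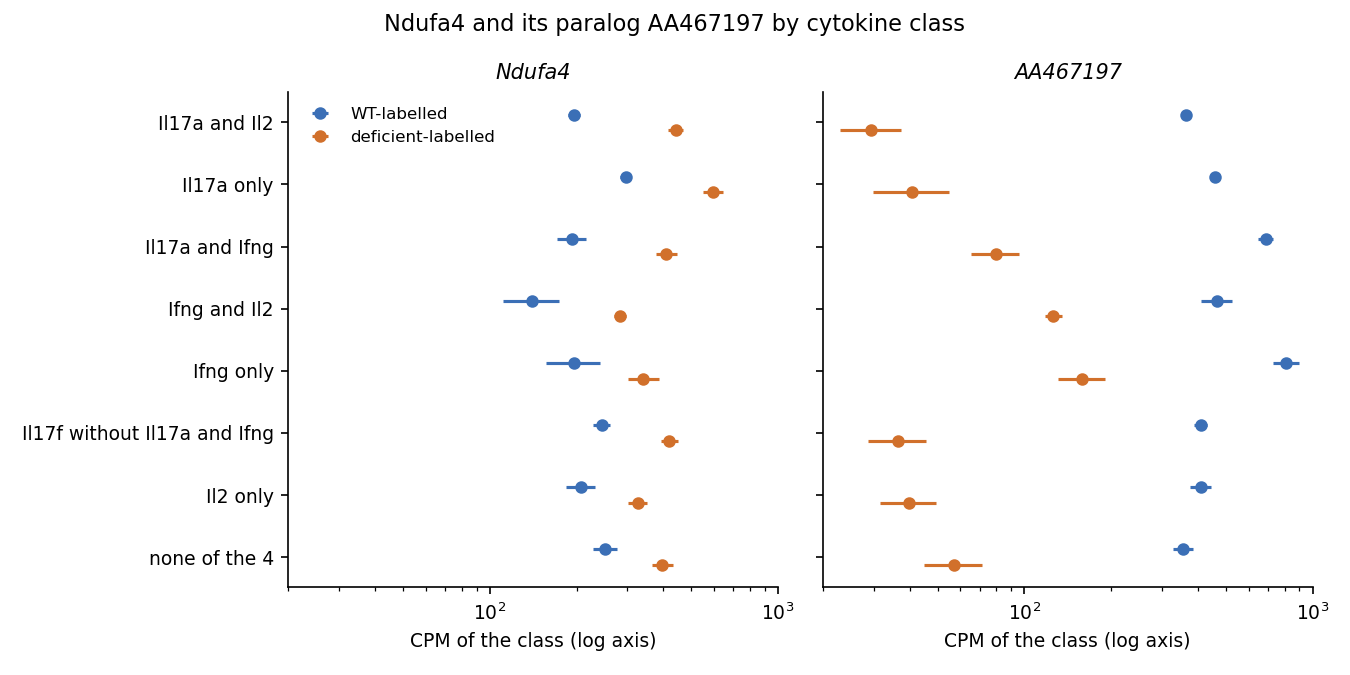
CPM (log axis) of Ndufa4 and AA467197 in each of 8 cytokine classes of both libraries, with 95% Poisson intervals of the summed UMIs. Ndufa4 is higher and AA467197 lower in the deficient-labelled library in every class.

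The tissue-restricted isoforms among the members belong to complex IV, and all were at low levels or not detected. Cox4i2, the lung isoform, stood at 1.43 and 1.45 CPM, against 748 and 688 CPM for Cox4i1. Cox6a2 and Cox7a1, heart and muscle isoforms, stood at 2 and 0 UMIs in all and at 6.18 and 4.97 CPM, and the testis isoform Cox6b2 at 8.47 and 3.13 CPM, a ratio of 0.370 (0.270 to 0.499). Cox7b2, Cox8b, Cox8c and Ndufa4l2 had 0 UMIs in both libraries, and 3 UMIs, the limit that a count of 0 allows, would be 0.123 and 0.168 CPM. With Ndufaf7 (15.4 and 16.8 CPM) these are the 9 members that did not reach 20 CPM.

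Cells were also grouped by the cytokine messages they held after thinning to 5000 UMIs, counting a cytokine as present at 5 UMIs or more. This left 1004 and 698 cells in 8 exclusive classes, from which 2 larger ones were formed: the Il17a class (Il17a without Ifng, 581 and 134 cells) and the Ifng class (Ifng without Il17a, 47 and 269 cells). The cut crosses a continuous range, since 37 and 26 cells held 3 to 7 Il17a UMIs, and 32 and 34 cells that many Ifng UMIs. In the WT-labelled library the nuclear subunits made up 2.003% of UMIs in the Il17a class and 2.012% in the Ifng class. Their median log2 ratio, Ifng over Il17a class, was 0.01, and 0.10 when set against the median of all genes. Of 78, 38 were lower, against 60.6% of all genes, and 2 passed the size line downward, against 23.1% of all genes lower and 12.1% higher past it. In the deficient-labelled library the shares were 2.08% and 1.74%, a ratio of 0.838. There 74 of 78 were lower, against 73.4% of all genes, 33 of them past the line, with a median of -0.30. All genes were also shifted in that contrast, to a median of -0.19, with 36.5% lower and 4.92% higher past the line. Under edgeR's TMM scaling the nuclear median moved to 0.01, and set against the median of all genes it was -0.10 before and -0.11 after that scaling but 0.09 among G1 cells.

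The mitochondrial genes were mostly lower in the Ifng class of both libraries, 12 of 13 in each, against 60.6% and 73.4% of all genes, with medians of -0.13 and -0.27 against -0.08 and -0.19 for all genes. Their share went from 3.13% to 2.88% and from 2.89% to 2.41%. Under TMM scaling the median of the deficient-labelled library was 0.04. Among members with the same sign in both libraries (55 of 98), Ndufa4 had the lowest ratio, followed by Sdhd, Ndufa9 and Cox7a2. Cox7a2, a subunit of the complex IV periphery, went from 402 to 335 CPM and from 477 to 324 CPM. Ndufb1-ps, annotated under a pseudogene-style symbol although it matches a complex I subunit, was highest in this sense, at 353 and 431 CPM and at 372 and 379 CPM. In 5 of the 98 members the ratios of the libraries ran in opposite directions with both intervals clear of no change, against 2.94% of all genes. This count was taken without TMM scaling and depends on the scaling.

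Because the libraries held different numbers of each class, the nuclear genes were also compared within classes. In the Il17a class their median library ratio was 0.05 against 0.12 for all genes, and in the Ifng class -0.22 against 0.01. With every class given equal weight, 47 of 78 nuclear subunits were lower in the deficient-labelled library and the median was -0.04, in place of 63 and -0.11. Measured from the median of all genes, the nuclear median was -0.15 without this weighting. It lay between -0.16 and -0.09 over 15 alternatives, which include the equal weights. The mitochondrial median was negative within 7 of the 8 classes, between -0.43 and -0.17, and 0.08 in cells with none of the 4 cytokines.

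**Figure D4:**
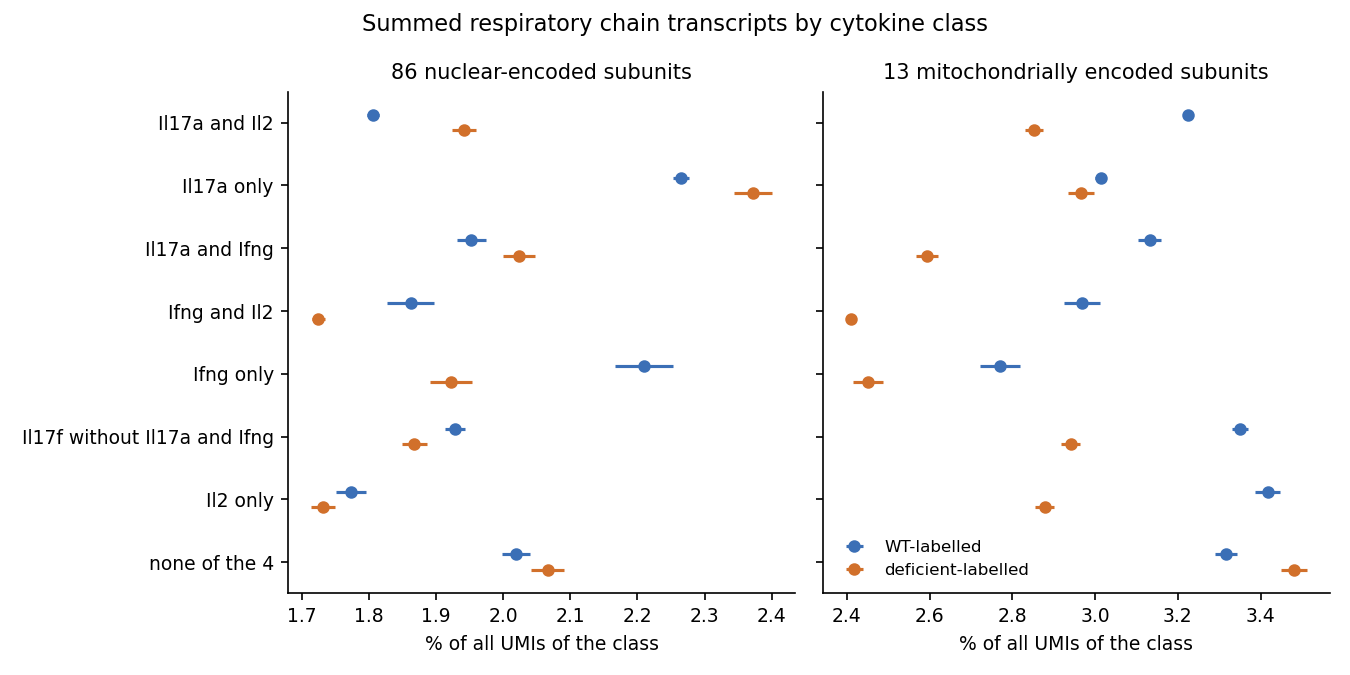
Summed share of UMIs (percent, with 95% Poisson intervals) of the nuclear-encoded subunits (left) and the mitochondrially encoded subunits (right) in 8 cytokine classes of both libraries; the axes do not start at 0. In each pair of classes that differ in Il2, the nuclear share is lower in the Il2-positive class, from 2.27% to 1.81% in WT-labelled cells with Il17a.

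A contrast seen in both libraries separated cells with Il2, the growth factor of activated T cells, from cells without it; it was added after the class values had been seen. The nuclear subunits made up 1.81% of UMIs in cells with Il17a and Il2 and 2.27% in cells with Il17a only in the WT-labelled library, a ratio of 0.797 (0.792 to 0.803). In the deficient-labelled library the shares were 1.94% and 2.37%, a ratio of 0.818 (0.806 to 0.831). The same order held with Ifng (1.86% against 2.21%, and 1.72% against 1.92%) and with neither (1.77% against 2.02%, and 1.73% against 2.07%). Summed shares weigh cells with many UMIs more. Over single cells of the Il17a pair the median shares were 1.76% (quartiles 1.57 to 1.95) and 2.03% (1.79 to 2.34) in the WT-labelled library. In the deficient-labelled library they were 1.78% (1.51 to 2.01) and 1.97% (1.75 to 2.45), so the quartile ranges overlapped in both. With per-cell means, the nuclear median of this pair against all genes was -0.18 in both libraries, in place of -0.32 and -0.25. Of the 78 nuclear subunits, 65 were lower in the Il2-positive class in 5 or all of the 6 pairs, against 29.7% of all genes. In all 6 pairs 45 of 78 were lower, against 726 of 5584 genes, and the looser rule was adopted after both counts had been seen. Past the size line, 46 and 33 of 78 were lower in cells with Il17a and Il2 than in cells with Il17a only, against 28.7% and 25.0% of all genes.

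All 5 complexes took part. In the WT-labelled Il17a pair the nuclear medians were -0.45 for complex I, -0.36 for complex II, -0.41 for complex III, -0.27 for complex IV and -0.39 for complex V. Among the lowest subunits over the 6 pairs were Ndufv3, Atp5c1 (the gamma subunit of ATP synthase) and Uqcr11, with mean log2 ratios of -0.61, -0.59 and -0.55. Ndufa5 was lower in 1 pair and the assembly factors Ndufaf2 and Ndufaf4 in 2 and 1. The mitochondrial genes differed by library: their summed share was 1.07, 1.07 and 1.03 times that of the Il2-negative class in the WT-labelled pairs, and lower in the deficient-labelled pairs, at 0.962, 0.983 and 0.827 times. In the last of these pairs the nuclear share was 0.838 times that of the Il2-negative class.

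**Figure D5:**
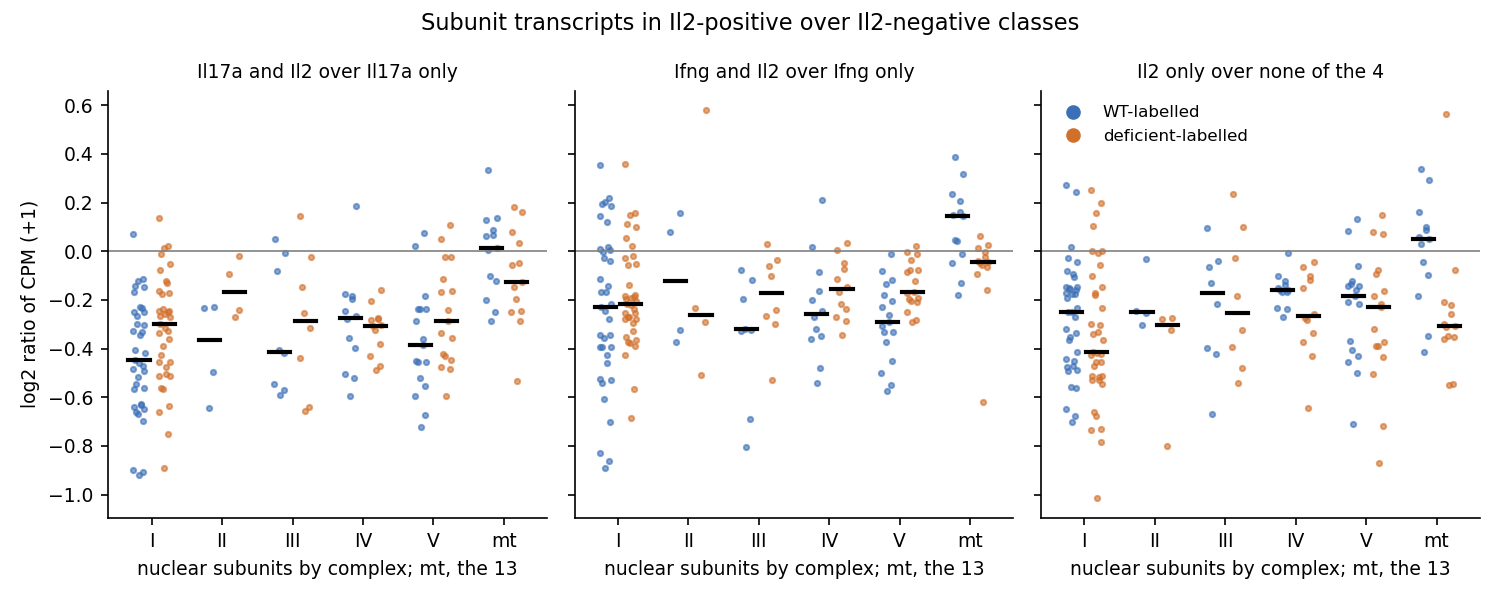
Log2 ratio of CPM with 1 CPM added for each member, Il2-positive over Il2-negative class, in 3 pairs of classes and both libraries; points are genes, black bars medians, mt the 13 mitochondrial genes. Nuclear medians are below 0 for every complex in every pair, while the mitochondrial medians lie on both sides of 0.

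Cell cycle phase moved with Il2. By marker score, 57.0% of WT-labelled cells with Il17a and Il2 were in G1, against 40.3% with Il17a only, and in the deficient-labelled library 62.0% against 42.9%. The nuclear share itself rose from G1 through S to G2/M, at 1.84%, 2.02% and 2.16% in the WT-labelled and 1.73%, 1.87% and 2.13% in the deficient-labelled library. Among G1 cells alone, the nuclear share stayed lower in the Il2-positive class in all 6 pairs, by 1.09-fold (1.08 to 1.10) and 1.15-fold (1.12 to 1.18) in the Il17a pair and by 1.06- to 1.22-fold over all pairs, the smallest of these classes holding 9 cells. Set against the median of all genes, however, the nuclear median of the Il17a pair was -0.32 and -0.25 in all cells and -0.018 and -0.054 in G1 cells, close to no difference. The other pairs did not all shrink in this way. The pair with neither Il17a nor Ifng went from -0.13 to -0.058 in the WT-labelled and from -0.28 to -0.25 in the deficient-labelled library. The deficient-labelled Ifng pair went from -0.14 to -0.20, and the WT-labelled one, with 9 G1 cells on 1 side, was not run. The part of the cell cycle in the contrast was not tested. Messages of the 4 cytokines took 4.42% and 2.19% of UMIs in the WT-labelled Il17a pair, and with them left out of the total the Il17a pair still differed by 1.23- and 1.20-fold.

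Mitochondrial and nuclear messages were also compared cell by cell. UMIs of the 13 mitochondrial genes numbered 1.61 per UMI of the nuclear subunits in the WT-labelled and 1.45 in the deficient-labelled library, with medians over cells of 1.73 and 1.51. Over cells thinned to equal depth, Spearman's rho between the 2 sums was -0.21 in 1004 cells and 0.05 in 698. Between nuclear complexes it was higher, 0.52 in both libraries for complexes I and V, 0.46 and 0.49 for complexes I and IV, and 0.32 and 0.33 for complexes I and III. With the mitochondrial ribosomal proteins, which are also nuclear-encoded, the nuclear subunits gave 0.48 and 0.45. They gave 0.35 and 0.41 with the cytosolic ribosomal proteins, and 0.15 and 0.08 with the citric acid cycle genes. These values describe cells of the same library, which share depth, cell cycle and total, and carry no test.

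Other genes of the pathway were taken from lists, counted at 20 CPM and the size line against the same 13.4% and 15.6%. Of 13 regulators of biogenesis and mitochondrial DNA expression, 0 passed in either direction, with Nrf1, a transcription factor of many respiratory genes, at 74.1 and 62.1 CPM. Of 29 assembly factors of all complexes, 4 were lower and 4 higher: Cmc2, which acts on complex IV, stood at 36.7 and 68.5 CPM, and Coa6, which delivers copper to mt-Co2 protein, at 23.0 and 14.8 CPM. Of 76 mitochondrial ribosomal proteins, 1 was lower and 5 higher, with a median of 0.01. Of 17 citric acid cycle genes, 2 were lower and 2 higher, with Cs (citrate synthase) at 70.1 and 53.8 CPM and Suclg1 at 65.1 and 86.9 CPM. Of 11 electron carrier genes 1 was higher, and Cyc1, the cytochrome c1 subunit of complex III that the symbol rule leaves out, stood at 109 and 88.2 CPM. Among 8 carrier genes, Atpif1, the inhibitor of ATP synthase, stood at 165 and 111 CPM, Vdac1, the outer membrane channel, at 102 and 68.9 CPM, and Ucp2, an inner membrane carrier, at 153 and 246 CPM. The cytosolic ribosomal proteins took 29.9% and 24.2% of UMIs, with 84 of 86 lower and a median of -0.30. With their UMIs left out of the total, 73 of 78 nuclear subunits were lower with a median of -0.23, while the median of all genes moved likewise, from 0.03 to -0.08.

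Promoter sequences from RefSeq (GRCm38.p6, 250 bases before to 50 after the start) matched 75 of the 94 nuclear members. The NRF1 motif GCGCATGC, searched on both strands, was found in 16.0% of them and in 3.05% of 27025 genes, and the ETS motif CCGGAAG in 25.3% and 9.93%. The YY1 motif AAGATGGCG was found in 10.7% and 1.64%, while TATAAA was found in 10.7% and 15.7%. A match is a description of letters and not a binding site. The 27025 genes were not limited to those at 20 CPM, and the share among expressed genes was not counted. Stretches of 130 bases at the start of Sdhb (chr4:140961141-140961270, plus strand) and Ndufa4 (chr6:11907451-11907580, minus strand) are shown, as the nuclear subunits at 20 CPM with the lowest and the highest ratio, with an NRF1 match in capitals.
Sdhb: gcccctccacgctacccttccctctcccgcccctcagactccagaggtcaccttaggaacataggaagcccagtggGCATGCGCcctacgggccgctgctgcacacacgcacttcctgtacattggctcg
Ndufa4: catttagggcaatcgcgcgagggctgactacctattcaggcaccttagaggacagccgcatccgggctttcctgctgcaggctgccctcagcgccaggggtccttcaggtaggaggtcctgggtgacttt
The Sdhb stretch holds the reverse complement of the NRF1 motif, starting 54 bases before the RefSeq start. The GENCODE M21 start of Sdhb, at position 140961203, lies earlier within the printed stretch and ahead of the motif. The Ndufa4 stretch holds none of the NRF1, ETS and YY1 motifs.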

How the data were processed

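Libraries were made with a 10x Genomics 3′ kit, and UMI counts per gene and barcode were deposited by the authors. Per the file headers they come from Cell Ranger 7.0.0, and per the submitters' processing notes the build is mm10. The sources used here do not say whether intronic reads were counted. The symbol rule uses no measured value, but it, the gene lists and the contrasts were chosen with earlier results of these data known. The rule for named genes takes all 13 mitochondrial genes, per complex the 2 highest and 2 lowest ratios and the highest level, the isoform sets, the 5 highest and 5 lowest class ratios of equal sign, and the 2 highest and 2 lowest of each related list, of which a part is printed. Members named beside it, such as Ndufv1, Ndufs8, Uqcrc1, Cox6c and the lowest of the Il2 contrast, were chosen after their values were seen.

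UMIs were summed over kept cells and scaled to CPM. Ratios are log2 of CPM with 1 CPM added, for genes at 20 CPM or more in either group. Thinning to 5000 UMIs left out 14 and 11 cells. Doublets were not removed. The values of 1 member are not reported here by name. Atp5l, Atp5md, Cox5b and Ndufaf7 have a near-identical copy counted separately, and their values are uncertain. Analyses used Python 3.11.15, NumPy 2.4.6, SciPy 1.17.1, pandas 2.3.3 and edgeR 4.0.16 for TMM factors. Ratios and intervals were tested on simulated data. The alternatives were other scalings, pseudocounts, minimum levels, cell filters, class cutoffs, per-cell means, equal class weights and G1 cells only.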

Additional observations from a re-analysis of the deposited data

Results flagged for a closer look

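For 5 of 98 members the Ifng over Il17a class contrast ran in opposite directions in the libraries, with both counting intervals on their own side of no change, against 2.94% of 5584 genes. Atp5e had log2 ratios of 0.25 in the WT-labelled and -0.12 in the deficient-labelled library, Atp5d of 0.21 and -0.21, Atp5b of 0.15 and -0.14, and Atp5g1 of 0.15 and -0.14. These 4 genes encode subunits of ATP synthase. The complex I assembly factor Ndufaf4 went the other way, at -0.29 and 0.21. In the deficient-labelled contrast 73.4% of all genes were lower, and TMM scaling moved the nuclear median there from -0.30 to 0.014. Such a factor moves every gene alike, so the negative signs of the 4 ATP synthase genes depend on the scaling. With 1 library per group, these differences between libraries were not tested, and the WT-labelled Ifng class held 47 cells.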

How the results depend on the processing

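With no replicates, a median was called by the same size line (0.32 on the log2 scale) and a change of side or sign is reported. Of 182 values of 12 results under 19 alternatives, 163 were kept, which for medians and ratios means the same direction and side. A median inside the line was thus kept at any size inside it with the same sign. Requiring 1000 genes left the class medians set against all genes unchanged, so it was no check on them. A count of lower genes was kept if it lay within a set fold of the main count. The fall from 63 to 47 lower nuclear subunits therefore stands among the values kept. The mitochondrial library median of -0.32 lay at the line and was -0.32 with a pseudocount of 5 CPM, -0.29 at 5% mt- UMIs and -0.23 with equal class weights. The nuclear class median of 0.01 in the WT-labelled library had no stable sign: it was -0.011 with per-cell means, -0.065 at 5% mt- UMIs, -0.0029 with no mt- limit, -0.023 and -0.077 at cutoffs of 1 and 10 UMIs, and -0.0095 thinned to 10000 UMIs. In the deficient-labelled library TMM scaling moved the nuclear and mitochondrial class medians to 0.014 and 0.038, and no mt- limit moved the mitochondrial one to -0.38. In the Il17a and Il2 contrast, added after seeing the data, the nuclear median of -0.40 in the WT-labelled library was -0.21 with TMM, -0.32 with median ratio scaling, -0.28 with per-cell means and -0.14 in G1 cells. The -0.28 of the deficient-labelled library was -0.33 at 5% and -0.38 at 20% mt- UMIs and -0.40 thinned to 10000. The cause was not tested. Over the alternatives Ndufa4 stayed between 0.54 and 0.90, Sdhb between -0.74 and -0.55, mt-Co1 between 0.08 and 0.24 and mt-Co2 between -0.82 and -0.58, whereas mt-Nd2 and mt-Nd6 changed sign. Genes near the line changed side. Uqcrfs1 ran from 0.23 to 0.40, Ndufa5 from 0.19 to 0.37 and Ndufaf8 from 0.19 to 0.42. Atp5d ran from -0.43 to -0.29, Ndufb11 from -0.43 to -0.24, Ndufa13 from -0.43 to -0.16, Cox7a2l from -0.43 to -0.18 and Uqcrh from -0.36 to -0.16. No paired analysis was possible because each group has 1 library and the labels carry no replicate numbers. Medians of class pairs with under 10 cells on a side were not run. Depth limits genes near 20 CPM and the class of 47 cells.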
